A study of Homo sapiens with 148 samples.

Results

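The comparison described here is between the stage named PH and pancreatic progenitors (PP) in the RNA-seq of a stepwise differentiation toward pancreatic islet organoids. Its members were the genes at 10 TPM or more in PP or PH, with entries of the same name summed, and 10283 of the 49085 gene names in the table met this. TPM is a measure of abundance, corrected for transcript length, whose total is the same in each library. All samples came from H9, an established and single line of human embryonic stem cells (hESCs), grown as spheroids, with the genotype given as WT and the treatment given as pancreatic differentiation in both groups. The table has a column for the hESCs and for each of 5 later stages, which are definitive endoderm (DE), the primitive gut tube (PGT), PP, PH and SC-β, the islet-like organoids at the end of the protocol. The labels list 12 RNA-seq samples among 148 samples of the series, with 2 for PP and 2 for PH. What the letters PH stand for, its day and its place among the other stages are not given in the sources used here.

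The deposited table holds 1 mean TPM per gene and stage, so every value below is the authors' mean, without an error, and no difference between PP and PH was tested. The depth of the libraries is unknown from these values. Ratios are log2((TPM in PH + 1)/(TPM in PP + 1)), and a gene counted as higher or lower in PH had a ratio of at least 1 in size, which is 2-fold on that scale. The genes nearest the limit of 10 TPM were CACNA2D2, inside it at 3.21 TPM in PP and 10.0039 TPM in PH, and VPS53, outside it at 8.76 and 9.99939 TPM. A gene that reached the limit in 1 stage alone had to differ between the stages, so counts over the members describe the tables and do not stand as evidence for a lineage. The cells were whole cultures, in which fewer cells of a type and less RNA per cell cannot be told apart.

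Pancreatic progenitors are foregut epithelium. Such cells are held together by cadherins and keratins and carry the FOXA, GATA and HNF transcription factors, which they share with liver and gut. Neural tube progenitors express SOX and PAX factors and stay progenitors through Notch signalling, in which ligand-bearing neighbours switch on HES genes, while proneural factors such as NEUROG1 drive cells to become neurons. In the spinal cord and hindbrain, each neuron class carries its own homeodomain factors, and HOX genes mark the position along the body axis.

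The transcript with the largest ratio of PH to PP was LINC00461, a long noncoding RNA whose span, chr5:88507546-88691057 on the minus strand of GRCh38, holds the gene of miR-9, a microRNA abundant in neural progenitors. It was at 0.0266 TPM in PP and 264 TPM in PH, a ratio of 8.01. The human genome has 3 miR-9 genes, and the hosts of the others, C1orf61 on chromosome 1 and LINC00925 on chromosome 15, were also among the 434 members at least 4-fold higher in PH. C1orf61 was at 0.481 against 109.7 TPM and LINC00925 at 0.372 against 109 TPM in PP and PH. In the other 4 stages the 3 hosts were at 6.77 TPM or less, with the highest value in C1orf61 in DE. The mature miRNAs were not measured by this assay. Their sequences are shown because all 3 hosts carry the same product, because MIR99AHG and MIR100HG, also higher in PH, hold products with shared seeds, and, for miR-205, because its host was lower in PH. All are from RefSeq for GRCh38, written 5′ to 3′ with the seed (bases 2 to 8) in capitals.
miR-9-5p, in LINC00461 (chr5:88666902-88666924, minus strand), C1orf61 (chr1:156420392-156420414, minus strand) and LINC00925 (chr15:89368032-89368054, plus strand): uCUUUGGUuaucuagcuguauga
miR-9-3p, from the other arm of the same hairpins: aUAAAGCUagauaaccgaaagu
let-7a-5p, in MIR100HG (chr11:122146568-122146589, minus strand): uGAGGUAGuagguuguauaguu
let-7c-5p, in MIR99AHG (chr21:16539838-16539859, plus strand): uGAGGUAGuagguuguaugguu
miR-125b-5p, in MIR100HG (chr11:122099809-122099830, minus strand) and MIR99AHG (chr21:16590253-16590274, plus strand): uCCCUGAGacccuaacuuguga
miR-100-5p, in MIR100HG (chr11:122152275-122152296, minus strand): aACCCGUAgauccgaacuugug
miR-99a-5p, in MIR99AHG (chr21:16539101-16539122, plus strand): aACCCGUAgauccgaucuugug
miR-205-5p, in MIR205HG (chr1:209432166-209432187, plus strand): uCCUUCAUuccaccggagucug

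MIR99AHG and MIR100HG each hold 1 member of the let-7 family, 1 of the miR-99 and miR-100 pair and 1 copy of miR-125b, so their products share 3 seeds. MIR99AHG was at 11.95 TPM in PP and 97.6 TPM in PH and at 61.9 TPM in SC-β organoids. MIR100HG, which like MIR205HG and MIR137HG was picked after its values were seen, was at 0.704 TPM in PP and 21.7 TPM in PH. MIR137HG, host of the neural miRNA miR-137, was at 0.638 against 19.9 TPM. In the other direction, MIR205HG, host of the epithelial miRNA miR-205, was at 25.6 TPM in PP and 2.69 TPM in PH. H19, an imprinted transcript that holds miR-675, was at 789.7 TPM in PP against 98.6 TPM in PH. The neural miRNA host MIR124-2HG was at 4.201 against 259.7 TPM. Over the list written for hosts of miR-9, miR-124 and let-7, 7 of 9 members were higher, against 9.67% of all members. On that list 1 was lower, and the median was 5.65. Over all members, and leaving out chromosome 8, 39 genes at least 4-fold higher in PH had 50 miRNA genes within their span on the same strand, and 11 genes at least 4-fold lower had 11. Such hosts made up 10.2% of 384 matched genes at least 4-fold higher, 3.75% of 293 at least 4-fold lower and 6.35% of all 9559 matched members.

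LIN28A and LIN28B encode RNA-binding proteins that block the maturation of let-7, and both were lower in PH. LIN28A (chr1:26410817-26429728, plus strand) had the lowest ratio of all members, at 169 TPM in PP and 0.0162 TPM in PH (-7.39). It was at 724 TPM in hESCs, 772 in DE, 516 in PGT and 27.5 in SC-β organoids, so PH alone was under 1 TPM. LIN28B was at 75.1 against 7.07 TPM in PP and PH. TRIM71, a developmental RNA-binding protein that is a known let-7 target, was at 43.7 against 1.72 TPM. HMGA2, a chromatin protein and another known target, was at 150.3 against 29.6 TPM and at 235 TPM in SC-β organoids. The 3 proteins IGF2BP1, IGF2BP2 and IGF2BP3 bind mRNAs in embryonic cells: IGF2BP3 was at 108 against 41.1 TPM and IGF2BP1 at 74.97 against 35.4 TPM, while IGF2BP2 was within 2-fold, at 71.3 against 64.1 TPM.

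Of the 10283 members, 994 (9.67%) were at least 2-fold higher in PH and 1426 (13.9%) at least 2-fold lower. At the 4-fold limit, 434 (4.22%) were higher and 328 (3.19%) lower. The counts of each gene list are to be read against these shares. The median ratio over the members was -0.20, with quartiles at -0.69 and 0.29, and 7863 members lay within 2-fold. There were 1492 members that reached 10 TPM only in PP and 1095 that reached it only in PH. Higher genes made up 41.1% of the called genes with the values as deposited, 54.3% with PH rescaled by the median ratio, 58.1% with totals recomputed without structural RNAs and 57.6% without the 100 most abundant genes, so which direction held more genes depended on the scaling. These rescalings moved the median ratio by 0.19, 0.27 and 0.26, and the ratios of single genes below are to be read against shifts of that size. The 434 genes at least 4-fold higher were mostly at their highest level in PH among the 6 stages (353 genes), with 54 highest in SC-β organoids. Their median level was 2.25 TPM in PP, 27.1 TPM in PH and 7.77 TPM in SC-β organoids. These 434 genes were selected for a high level in PH: 57 reached 10 TPM in PP, and PP could not be their highest stage. Of the 7863 members within 2-fold, 847 were highest in PH. The same selection lies behind the counts of higher genes that were highest in PH in the lists below, so those counts only describe the table.

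Among the other genes with the widest ratios, several had known roles in neurons. STMN4, a relative of STMN2, was at 0.138 TPM in PP and 61.4 TPM in PH, ATCAY (caytaxin), of neuronal vesicle transport, at 0.601 against 67.6 TPM and HMP19, now named NSG2, at 0.257 against 44.9 TPM. LGALS1 (galectin-1), made by mesenchyme and many neurons, was at 3.83 against 179.9 TPM and at 95.4 TPM in SC-β organoids, and ADAMTSL1, of the matrix, was at 0.507 against 55.2 TPM. In SC-β organoids the first 3 were at no more than 2.13 TPM.

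On the lower side, HAPLN1, a link protein of the matrix, was at 42.03 TPM in PP and 0.111 TPM in PH, FREM2, of the basement membrane, at 157 against 6.098 TPM and CDH6 (K-cadherin) at 109.9 against 4.702 TPM. PRDM1 (BLIMP1), a repressor used in germ cells and foregut, was at 21.01 against 0.271 TPM and CALB1 (calbindin) at 33.6 against 0.775 TPM. S100A3 was at 57.1 TPM in PP and at 1 TPM or less in the other stages, listed at 0 in PH. Of 7 members of the S100 family, which bind calcium, 6 were lower and none higher, with a median of -2.03. Of HAPLN1, FREM2, CDH6, PRDM1, CALB1 and S100A3, CDH6 was the 1 with more RNA in SC-β organoids than in PP, at 141 TPM.

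**Figure D1:**
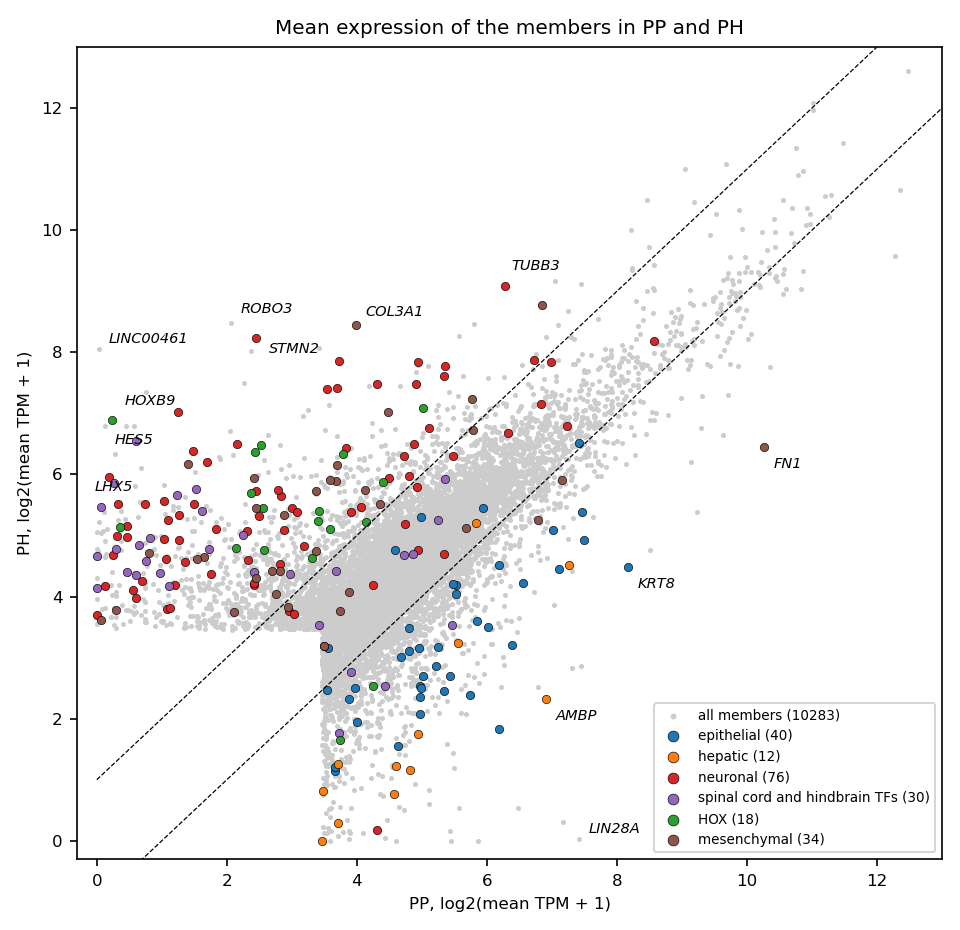
Mean expression of the 10283 members, as log2(mean TPM + 1) in PP (x axis) and PH (y axis), with 6 gene lists in color and dashed lines at 2-fold. Neuronal, HOX and spinal cord and hindbrain genes lie mostly above the upper line and epithelial and hepatic genes mostly below the lower one, with LIN28A at the far lower right.

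The markers HES5, LHX5 and SKOR1 set PH apart from the other 5 stages. HES5, a repressor switched on by Notch, was at 0.0882 TPM in PP and 109.8 TPM in PH, reached 1.51 TPM in SC-β organoids, and was listed at 0 in DE and PGT. LHX5, a LIM homeodomain factor of dorsal spinal cord interneurons, was at 43.4 TPM in PH and at no more than 0.0496 TPM elsewhere. SKOR1, a co-repressor that partners LBX1 in dorsal spinal interneurons, was at 57.1 TPM in PH and at no more than 0.272 TPM elsewhere. The ratios to PP were 6.67 for HES5, 5.40 for LHX5 and 5.59 for SKOR1. Because PP was under 1 TPM for all 3, their size depends on the pseudocount: with 5 TPM in place of 1 they were 4.50, 3.26 and 3.58, and with 0.1 TPM 9.19, 8.19 and 7.54.

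The promoters of HES5 and SKOR1 are shown because they hold the letters of sites known for the Notch effector RBPJ and for the neuronal repressor REST. Each runs from 250 bases before to 50 bases after a RefSeq start of the gene, read 5′ to 3′ on the strand of the gene. Capitals mark GTGGGAA, the core of RBPJ sites, or its reverse complement in HES5, and TTCAGCACC, a part of the REST site, in SKOR1.
HES5 promoter (chr1:2530214-2530513, minus strand): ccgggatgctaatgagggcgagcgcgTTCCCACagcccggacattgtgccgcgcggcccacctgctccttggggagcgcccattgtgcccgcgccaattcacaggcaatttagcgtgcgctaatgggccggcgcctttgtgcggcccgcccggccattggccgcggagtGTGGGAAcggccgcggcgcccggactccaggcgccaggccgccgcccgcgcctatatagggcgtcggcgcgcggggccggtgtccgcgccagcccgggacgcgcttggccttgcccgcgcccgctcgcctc
SKOR1 promoter (chr15:67825259-67825558, plus strand): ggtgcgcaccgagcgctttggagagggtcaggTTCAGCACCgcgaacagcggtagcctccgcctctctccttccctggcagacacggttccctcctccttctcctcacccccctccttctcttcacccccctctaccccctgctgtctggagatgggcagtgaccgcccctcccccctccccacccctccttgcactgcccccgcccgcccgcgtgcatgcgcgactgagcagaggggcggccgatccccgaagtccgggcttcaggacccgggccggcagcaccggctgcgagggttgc

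The 2 matches in HES5 begin at -224 and -81 from the start and lie on opposite strands, and the match in SKOR1 begins at -218. Over both strands, GTGGGAA was in 6.16% of 536 promoters of genes at least 4-fold higher in PH, 6.05% of 314 promoters of genes at least 4-fold lower and 6.25% of all 35116 promoters in the table. TTCAGCACC was in 0.933%, 0.318% and 0.376% of the same sets. The 5 genes with it among those higher were SKOR1, ADGRG1, CELSR3, GRIA2 and SCG3. The E-box CAGCTG, which proneural factors can bind, was in 21.3%, 15.3% and 17.9%, and the forkhead letters TGTTTAC in 2.43%, 3.82% and 3.42%, with the variant TGTTTGC in 3.92%, 6.69% and 3.89%. Of other endodermal and epithelial sites, the HNF1 letters GTTAAT were in 5.04%, 7.01% and 6.88%. The HNF4 letters CAAAGTCCA were in 0.187%, 0.318% and 0.384%, with 1 promoter in each of the first 2 sets. The GRHL letters AACCGGTT were in 0%, 0% and 0.134%. These are matches of letters only, and no binding was measured. REST mRNA was at 11.8 against 12.8 TPM in PP and PH and RBPJ mRNA at 37.97 against 55.3 TPM.

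Epithelial genes were lower in PH. Of 58 genes listed for epithelial adhesion, keratins and splicing, 40 were members, of which 35 were at least 2-fold lower, 5 were within 2-fold and none was higher, with a median ratio of -2.16 against -0.20 over all members. The share of all members that was at least 2-fold lower was 13.9%. The summed level of the list was 2441 TPM in PP, 628 TPM in PH and 1883 TPM in SC-β organoids, and at least 2724 TPM in hESCs, DE and PGT, so PH was the lowest of the 6 stages. KRT8, a keratin of simple epithelia, was at 288 TPM in PP and 21.4 TPM in PH (ratio -3.69), and its filament partner KRT18 was at 176 against 40.8 TPM. Of the other keratins, KRT23 was at 72.1 against 2.57 TPM and KRT19 was within 2-fold at 170.5 against 89.97 TPM. A pair of keratins outside the list stood the other way: KRT17, of basal epithelial cells, was at 0.0415 TPM in PP and 32.01 TPM in PH, and KRT4, picked after its value was seen, was at 0.348 against 20.4 TPM. Both were higher still in SC-β organoids, at 113 and 351 TPM. The adhesion genes EPCAM, at 179.9 against 29.3 TPM, CDH1 (E-cadherin), at 92.6 against 17.7 TPM, and CDH3 (P-cadherin), at 82.8 against 8.195 TPM, were all lower in PH. CDH2 (N-cadherin), which neural and mesenchymal cells use, was at 106 against 117 TPM.

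Several genes of tight junctions on the list were lower. OCLN (occludin) was at 30.5 TPM in PP and 3.22 TPM in PH, MARVELD2 (tricellulin) at 23.9 against 1.94 TPM and F11R (JAM-A) at 52.3 against 4.24 TPM. Claudins differed in size: CLDN3 was at 11.7 against 1.21 TPM, CLDN7 at 30.3 against 4.79 TPM, CLDN4 at 72.1 against 21.8 TPM and CLDN6 at 44.99 against 17.3 TPM. CLDN1 and CLDN10, under the limit of 10 TPM, were within 2-fold at 6.46 against 3.53 TPM and 1.76 against 1.07 TPM, and CXADR, a junction protein also made in embryonic neurons, was within 2-fold at 30.8 against 38.5 TPM. Desmosomal DSP was at 136 against 20.9 TPM and PKP2 at 39.4 against 4.48 TPM, while plakoglobin, JUP, was within 2-fold at 60.4 against 42.6 TPM. ESRP1, which sets the epithelial form of spliced mRNAs, was at 42.2 against 5.48 TPM, and GRHL2, a transcription factor that maintains epithelia, at 31.3 against 5.46 TPM. ZEB1, a repressor of CDH1 and of other epithelial genes that is also made in neural progenitors, stood the other way, at 4.36 TPM in PP and 60.1 TPM in PH and 32.5 TPM in SC-β organoids.

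Transcription factors of the endoderm were low in PH, and many were low in PP as well. Of 29 listed factors of pancreatic progenitors, 12 were members, with 7 at least 2-fold lower, 1 higher and a median ratio of -1.86, and 17 of the 29 were under 1 TPM in PH against 3 in PP. With a limit of 30 TPM, which leaves out all 7 lower genes, the median was 0.23. FOXA1 and FOXA2, the forkhead factors that open foregut enhancers, were at 25.8 against 1.96 TPM and 13.2 against 1.17 TPM in PP and PH. GATA4 was at 10.2 against 0.682 TPM and GATA6 at 11.6 against 0.848 TPM. ONECUT1, which acts upstream of endocrine precursors, was at 20.6 against 4.8002 TPM, and GLIS3, needed for β cells, was at 11.98 against 2.66 TPM. All 6 were at a higher level in PP than in PH, and FOXA1, FOXA2, GATA4 and GATA6 reached higher levels still in DE and PGT.

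Several factors that define the pancreatic bud did not reach 10 TPM in either stage and were not members. PDX1, which pancreas formation requires, was at 3.17 TPM in PP and 0.0173 TPM in PH, and NKX6-1, which marks progenitors able to make β cells, was at 2.204 against 0.256 TPM. HHEX was at 8.03 against 0.108 TPM and RFX6 at 8.54 against 0.124 TPM. None of these 4 factors thus reached 10 TPM in PP. The study also stained PP cells for the PDX1 and NKX6-1 proteins, which are not measured by these RNA values. The SC-β organoids had 1.57 TPM of PDX1, 5.37 TPM of NKX6-1, 2.58 TPM of HHEX and 14.2 TPM of RFX6. PTF1A, a factor of pancreatic exocrine cells that is also made in dorsal spinal interneurons and the cerebellum, was at 1.02 TPM in PP and 7.61 TPM in PH and at 0.0229 TPM or less in the other stages. SOX9, which progenitors of pancreas and neural tube both express, was at 23.7 against 27.2 TPM, PROX1, used in both lineages too, at 2.55 against 11.1 TPM, MEIS1 at 128 against 161 TPM and MEIS2 at 102 against 120.1 TPM. PROX1 was the member counted as higher.

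Liver proteins were at low levels in PH. Of 33 listed genes for proteins that hepatocytes or yolk sac secrete or use, 12 were members, with a median ratio of -3.27. Of these 12, 11 were at least 4-fold lower, against 3.19% of all members. The summed level was 560 TPM in PP against 96.0 TPM in PH, with 1930.5 TPM in SC-β organoids, and 20 of the 33 genes were under 1 TPM in PH. AMBP, a precursor of plasma protease inhibitors, was at 119 against 4.02 TPM and had the lowest ratio on the list, -4.59. APOE, a lipid carrier that glia and mesenchyme also make, had the largest difference, at 152 against 22.01 TPM. AFP, the fetal albumin-like carrier, was at 27.1 against 1.23 TPM, FGB, a fibrinogen chain, at 22.8 against 0.704 TPM and APOA1, the main protein of HDL, at 23.2 against 1.35 TPM. APOA2 was at 10.1 TPM in PP and listed at 0 in PH. The exception was TTR, a thyroid hormone carrier made by liver, islets and choroid plexus, which was within 2-fold at 55.8 against 35.9 TPM.

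Of 6 members among gut genes, 5 were lower, with a median of -2.13, although at a limit of 30 TPM the median was 0.57. VIL1, a protein of the microvilli, was at 28.8 against 4.06 TPM, CLDN18, a claudin of stomach and lung, at 25.6 against 1.97 TPM and TM4SF4 at 22.3 against 1.31 TPM. PAX8 was the sixth, at 39.96 against 59.98 TPM, and this factor is also made in spinal and hindbrain interneurons. Of 24 exocrine and ductal genes found in the table, 8 were members and 3 of these were lower: SPP1 (osteopontin) at 73.4 against 4.74 TPM, the bicarbonate transporter SLC4A4 at 19.8 against 1.84 TPM and ANXA4 at 30.4 against 4.05 TPM. SPINK1, a trypsin inhibitor of acinar cells, was at 84.9 against 75.6 TPM.

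The hormone genes among the members, GCG, SST and GHRL, were within 2-fold between PP and PH. INS (insulin) was at 6.93 against 6.86 TPM, GCG (glucagon) at 16.5 against 27.2 TPM, SST (somatostatin) at 48.1 against 65.8 TPM and GHRL (ghrelin) at 18.1 against 15.7 TPM. Other hormones under the limit of 10 TPM differed: GAST (gastrin) was at 9.57 against 0.021997 TPM and TAC1, the precursor of substance P, at 0.141 against 5.29 TPM, and PYY was at 1.4999 TPM in PP and listed at 0 in PH. In SC-β organoids INS, GCG and SST were at 298, 2793 and 203 TPM. The granule protein CHGA was lower in PH, at 215 against 70.04 TPM, whereas CHGB was higher, at 5.46 against 19.6 TPM, as was SCG3, at 2.15 against 16.2 TPM. Of 12 members among hormone and granule genes, 3 were higher, 1 lower and 8 within 2-fold. NEUROG3, the switch for the endocrine fate, was at 0.556 against 0.602 TPM, and NKX2-2 was at 0.493 TPM in PP and listed at 0 in PH.

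Of 10 members among the endocrine transcription factors, 6 were higher and 2 lower, with a median of 2.77, or 0.39 over all 21 listed with no limit on low values. The 6 are also made in neurons or neural progenitors. MYT1 was at 0.299 TPM in PP and 41.03 TPM in PH, its relatives MYT1L and ST18 at 0.00476 against 32.3 TPM and 4.93 against 74.4 TPM. INSM1, a factor of newborn endocrine cells and newborn neurons, was at 2.31 against 26.5 TPM, PAX6 at 2.27 against 17.2 TPM and IRX1 at 2.32 against 28.6 TPM. All 6 were highest in PH among the 6 stages, and 5 were more than 2 times their level in SC-β organoids. The 2 lower genes were ISL1, at 13.98 against 5.79 TPM, and ETV1, at 22.6 against 5.97 TPM.

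Neural progenitor genes were higher in PH. Of 46 members, 29 were at least 2-fold higher, which was true of 9.67% of all members, and 4 at least 2-fold lower, with a median ratio of 1.41, and the summed level was 2893 TPM in PP, 5797 TPM in PH and 4595 TPM in SC-β organoids. MIAT, a noncoding RNA of neural tissue, was at 0.682 TPM in PP and 162 TPM in PH (ratio 6.60), NCAN, a proteoglycan of the neural matrix, at 0.0807 against 40.9 TPM and the POU factor POU3F3 at 0.855 against 30.4 TPM. ZIC1, a zinc finger factor of the dorsal neural tube, was at 17.2 against 173 TPM, and PAX3, which marks the same region, at 30.9 against 97.3 TPM. SOX2, of neural and pluripotent cells, was within 2-fold, at 68.2 against 109 TPM, and NES (nestin) was at 50.9 against 136 TPM. SOX1, found almost only in neuroectoderm, was not a member, at 0.2901 against 5.42 TPM. Among the 4 lower genes were MDK (midkine), at 635 against 155 TPM, and DBI, which binds acyl-CoA, at 207 against 61.8 TPM.

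Notch ligands, a receptor, modifying enzymes and targets were among the genes higher in PH. Among ligands, DLL1 was at 8.103 TPM in PP and 76.5 TPM in PH and DLL3 at 1.11 against 24.2 TPM, while JAG1 was within 2-fold at 49.6 against 59.6 TPM. NOTCH1 was the 1 receptor at least 2-fold higher, at 9.298 against 62.8 TPM, with NOTCH2 at 35.5 against 48.5 TPM and NOTCH3 at 35.04 against 36.8 TPM. Of the fringe enzymes that modify the receptors, MFNG was at 1.69 against 16.7 TPM and LFNG at 3.78 against 23.96 TPM. Targets were split: HES5, HES4, HES6 and NRARP were higher, with HES4 at 4.62 against 32.2 TPM and NRARP at 2.003 against 16.3 TPM, but HES1 was at 44.4 against 46.5 TPM and HEY1 at 15.2 against 10.5 TPM. Over the list, 10 of 24 members were higher and 1 lower, with a median of 0.52. The lower gene was DLK1, a noncanonical ligand, at 105 against 15.9 TPM.

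The factors that name neuron classes of the spinal cord and hindbrain held some of the widest differences. Of 83 such factors found in the table, 30 were members, with 4 lower and a median ratio of 3.23. Of the 30, 20 were at least 2-fold higher, against 9.67% of all members. Over all 83, with no limit on low values, the median was 0.42, since many were near 0 in both stages. Of the 20, 18 were highest in PH among the 6 stages and 18 were more than 2 times their level in SC-β organoids. The summed level was 330 TPM in PP, 946 TPM in PH and 504 TPM in SC-β organoids.

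Factors of dorsal progenitors were among them. NEUROG1, a proneural factor, was at 0.966 TPM in PP and 19.8 TPM in PH. GSX2, a homeodomain factor of dorsal progenitors, was listed at 0 in PP and was at 16.6 TPM in PH. OLIG3, of the most dorsal progenitors, was within 2-fold at 11.8 against 20.3 TPM. PRDM13, which sets the choice between inhibitory and excitatory interneurons there, was at 0.387 against 20.2 TPM. ATOH1, of the first dorsal domain, was no member, at 0.0888 against 5.53 TPM.

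Postmitotic factors of dorsal inhibitory interneurons were higher, namely PAX2 at 0.227 against 26.4 TPM, LHX1 at 0.525 against 92.1 TPM and LHX5 as given above. LBX1, which divides the dorsal interneurons into 2 large groups, was listed at 0 in PP and was at 24.4 TPM in PH and 1.97 TPM in SC-β organoids. Factors of excitatory and sensory neurons were higher too, with POU4F1 (BRN3A) at 0.689 against 23.1 TPM and EBF3 at 1.86 against 53.3 TPM. Factors of neurons in the making, whatever their class, belonged to the same group: NHLH1 was at 0.572 against 27.6 TPM, NEUROD4 at 1.16 against 17.03 TPM, NEUROG2 at 6.83 against 19.6 TPM and EBF2 at 0.513 against 19.4 TPM. TLX3, which selects the excitatory fate in the dorsal horn, was not a member, at 0.318 against 7.004 TPM. EBF1 was at 0.757 against 29.98 TPM, but at 61.8 TPM in SC-β organoids, and was 1 of the 2 genes highest there.

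Several ventral and motor neuron factors were under 10 TPM in both stages. OLIG2, of motor neuron progenitors, was at 0.425 against 0.318 TPM, LHX3, of motor neurons and V2 interneurons, was listed at 0 in PP and was at 0.0187 TPM in PH, and EN1, of V1 interneurons, was at 0.288 against 0.0864 TPM. MNX1, made in motor neurons and in the pancreas, was at 5.85 against 1.71 TPM. FOXP2, on the same list, stood the other way, at 4.34 against 20.05 TPM, and was at 23.3 TPM in SC-β organoids. The 4 members lower in PH were ISL1, MSX2, ONECUT1 and ONECUT2. MSX2, of the roof plate, was at 43.2 against 10.5 TPM, and MSX1 within 2-fold at 28.2 against 25.01 TPM.

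**Figure D2:**
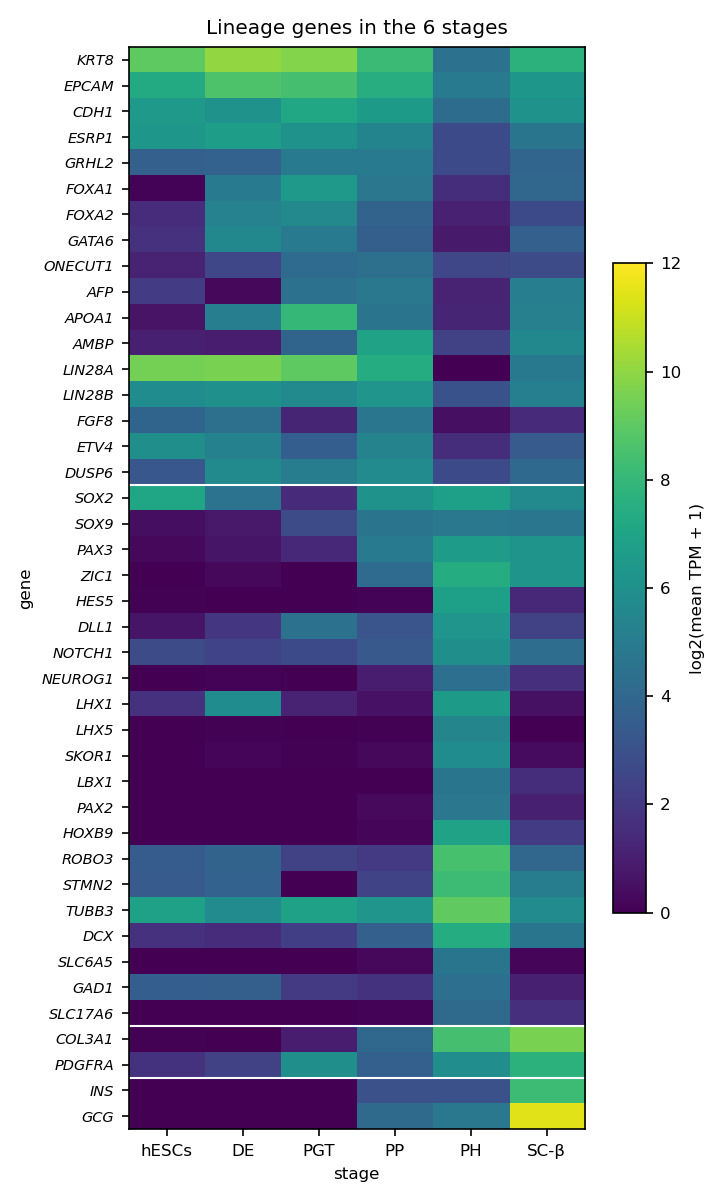
Levels of 42 genes (rows) in the 6 stages (columns) as log2(mean TPM + 1), with white lines between genes lower in PH, neural genes, mesenchymal genes and hormones. PH is the only column in which LHX5, SKOR1, PAX2 and LBX1 stand above about 2 on this scale, whereas INS and GCG are highest in SC-β organoids.

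Of 24 anterior brain factors, 4 were members. Of those under the limit, OTX2, of forebrain and midbrain, was at 0.964 against 0.0554 TPM, and SIX3 was at 0.0744 against 0.0512 TPM. GBX2, of anterior hindbrain, stood higher in PH, at 3.75 TPM in PP and 31.3 TPM in PH. Of the other members, DLX1, at 14.1 against 3.503 TPM, and DLX5, at 17.5 against 5.02 TPM, were lower, and PAX8 was within 2-fold, as given above.

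Most HOX genes that were members were higher in PH, up to the ninth group, while 12 of the 36 listed were under 1 TPM in PH. Of 36 listed in the table, 18 were members, of which 16 were at least 2-fold higher, against 9.67% of all members, and 2 lower. Of the 16, 15 were highest in PH among the 6 stages. The summed level was 181 TPM in PP, 941 TPM in PH and 366 TPM in SC-β organoids, and no more than 6.66 TPM in the stages before PP. HOXB9 was at 0.171 TPM in PP and 118 TPM in PH and 3.43 TPM in SC-β organoids, and its ratio of 6.67 was the third largest of all members. HOXB8 was at 4.39 against 81.6 TPM, HOXB7 at 4.15 against 51.001 TPM and HOXB6 at 4.77 against 88.4 TPM. HOXA6 was at 0.283 against 34.1 TPM and HOXA5 at 12.8 against 79.3 TPM. At the front end of its cluster, HOXB1 was lower in PH, at 12.3 against 2.15 TPM.

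Genes beyond the ninth group were close to 0, with HOXA10 at 0.0488 against 0.323 TPM and HOXD10 listed at 0 in PH. Within the ninth group the clusters were unequal, since HOXA9 was at 2.26 TPM and HOXC9 at 0.128 TPM in PH where HOXB9 was at 118 TPM. SC-β organoids stood closer to PH in HOXC genes, with HOXC4 at 35.6 against 41.2 TPM in PH and HOXC5 at 39.2 against 26.1, than in HOXB genes such as HOXB6, at 8.62 against 88.4.

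**Figure D3:**
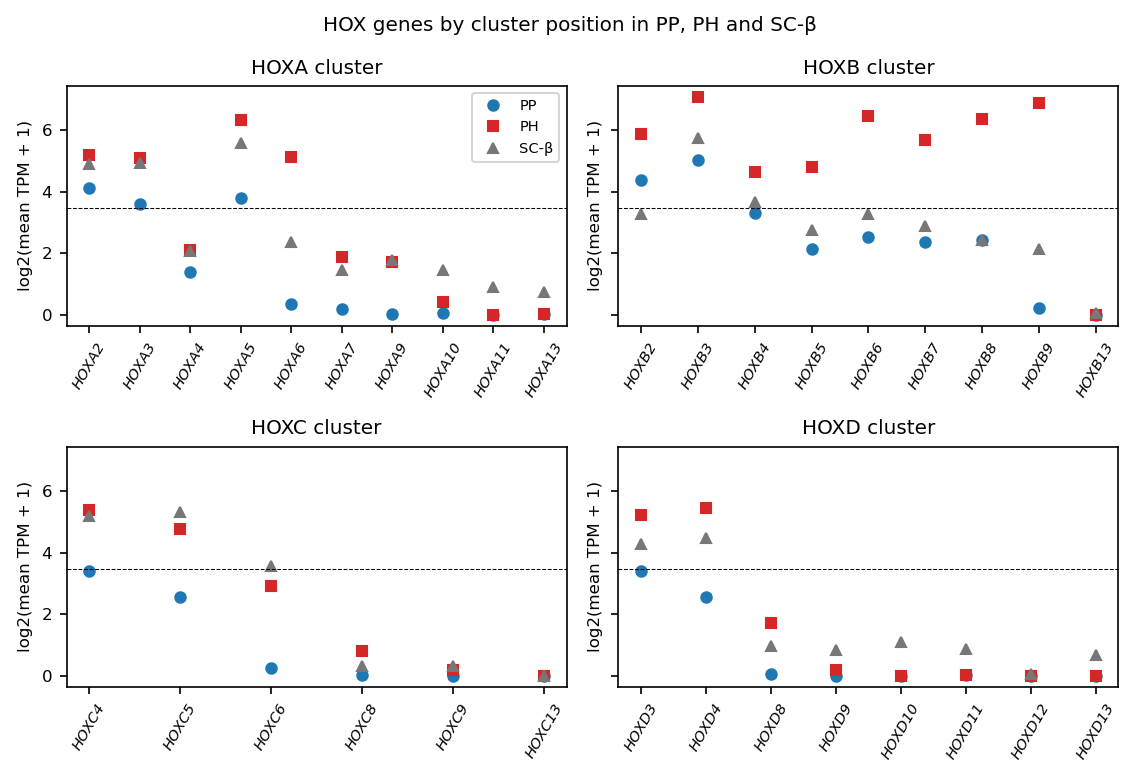
HOX genes of groups 2 to 13 in the order of their number within each of the 4 clusters (x axis) and their level as log2(mean TPM + 1) (y axis) in PP, PH and SC-β organoids, with a dashed line at 10 TPM. PH points lie above PP points from group 2 to group 9 in the HOXB panel, where HOXB9 is at 118 TPM in PH, and fall to near 0 beyond the ninth group in all panels.

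Neuronal genes were higher in PH. Of 99 listed, 76 were members, of which 1 was lower, with a median of 2.74. Of the 76, 61 were at least 2-fold higher, against 9.67% of all members, and 49 at least 4-fold higher, against 4.22%. The list summed to 1753 TPM in PP, 5972 TPM in PH and 2086 TPM in SC-β organoids, with 1548 to 2143 TPM in the earlier stages. Of the 61, 56 were highest in PH and 54 were more than 2 times their level in SC-β organoids.

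Among genes of the neuronal cytoskeleton, TUBB3, the neuronal β-tubulin, was at 76.3 TPM in PP and 545 TPM in PH, and STMN2, a microtubule regulator of growing axons, at 4.48 against 301 TPM. TUBA1A, the α-tubulin of developing neurons, was not on the list but was 1 of the 10 genes with the largest difference in TPM, at 528 against 2049 TPM. DCX (doublecortin), of migrating neurons, was at 11.995 against 169 TPM, MAP2, of dendrites, at 18.8 against 178 TPM and MAPT (tau) at 1.304 against 17.1 TPM. INA, a neuronal intermediate filament, was at 1.79 against 82.2 TPM, and GAP43, of growth cones, at 3.47 against 89.5 TPM. STMN1, common to dividing cells and neurons, was within 2-fold at 379.6 against 291 TPM. NEFM, the middle neurofilament chain, was at 39.4 against 25.02 TPM and the light chain NEFL at 28.5 against 89.1 TPM.

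RNA-binding proteins that shape neuronal transcripts stood together. The ELAVL proteins bind neuronal mRNAs, and ELAVL3 was at 0.385 against 30.4 TPM, ELAVL4 at 1.41 against 39.4 TPM and ELAVL2 at 6.11 against 48.8 TPM. CELF3 was at 2.23 against 72.996 TPM, and the splicing regulators NOVA1 and SRRM4 at 6.38 against 32.9 TPM and 1.11 against 12.8 TPM. Of 9 members named CELF or ELAVL, 6 were higher and none lower. PTBP1, which holds back neuronal splicing in other cells, was lower in PH, at 130.03 against 45.4 TPM, and its neural relative PTBP2 was at 60.4 against 85.5 TPM. ACTL6B, the neuronal subunit of the BAF chromatin remodeller, was at 0.254 against 37.1 TPM, with ACTL6A, its form in progenitors, at 66.1 against 46.7 TPM. DPF1 and DPF3, other BAF subunits of neurons, were at 3.51 against 17.4 TPM and 2.16 against 10.7 TPM. BCL11A and BCL11B, zinc finger partners of BAF, were at 3.03 against 35.6 TPM and 1.19 against 10.8 TPM. Over 24 members listed as chromatin and RNA regulators with neural forms, 5 were higher and 5 lower, with a median of 0.02.

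Transmitter genes for glycine, GABA and glutamate were mostly higher in PH, at 24.7 TPM or less there. For glycine, SLC6A5, the transporter of glycinergic neurons, was at 0.188 TPM in PP and 24.7 TPM in PH and at no more than 0.123 TPM in the other 4 stages. For GABA, GAD1 was at 2.38 against 19.7 TPM, GAD2 at 1.57 against 22.6 TPM and SLC32A1, which loads both transmitters into vesicles, at 0.00717 against 8.16 TPM, under the limit of 10 TPM. For glutamate, SLC17A6 was at 0.0895 against 16.97 TPM, and SLC17A7, the transporter of cortical neurons, at 0.0317 against 0.318 TPM. For acetylcholine, SLC5A7, the choline transporter, was the neuronal gene lower in PH, at 18.8 against 0.129 TPM, and CHAT was at 0.341 against 0.41003 TPM. Synaptic genes were also higher, with SNAP25 at 3.97 against 32.8 TPM, SYT1 at 4.64 against 39.1 TPM and the receptor subunit GRIA2 at 0.245 against 30.8 TPM, although SYT1 was at 40.9 TPM in SC-β organoids.

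Axon guidance genes were mixed, with 16 of 39 members higher, 8 lower and a median of 0.63. ROBO3, the receptor that lets commissural axons cross the midline, was at 3.16 TPM in PP and 358 TPM in PH and at no more than 14.7 TPM in the other 4 stages. With PP at 3.16 TPM its ratio of 6.43 moved less with the pseudocount than that of HES5, to 5.47 with 5 TPM. DCC, the netrin receptor of the same axons, was at 2.69 against 77.2 TPM. Its ligand NTN1 was under the limit of 10 TPM, at 3.11 against 9.26 TPM, and SLIT1, a midline repellent, was at 11.998 against 65.1 TPM. Among ephrin receptors, EPHB1 was at 1.94 against 11.6 TPM and EPHA3 at 1.25 against 43.6 TPM, while EPHA2, an epithelial one, was at 22.7 against 8.46 TPM. CNTN2 (TAG-1), an adhesion protein of commissural axons, was at 1.37 against 129.7 TPM. Lower genes included SEMA3D, at 37.1 against 5.26 TPM, the netrin receptor UNC5C, at 28.8 against 7.36 TPM, and the semaphorin receptor NRP2, at 64.02 against 23.5 TPM, each at a higher level in SC-β organoids than in PH.

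**Figure D4:**
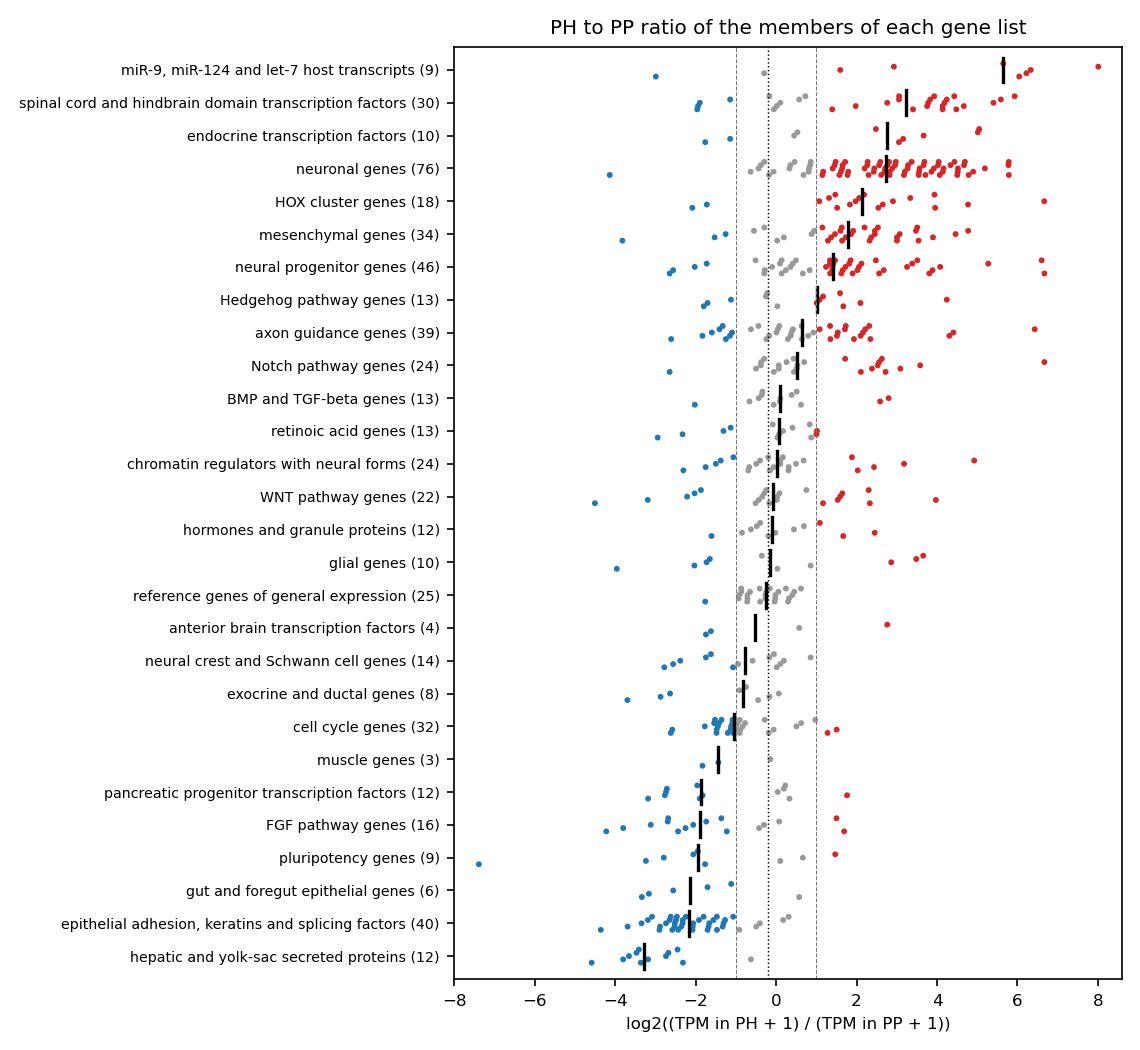
Log2 ratio of PH to PP (x axis) for every member of each gene list (rows, with the number of members), red at least 2-fold higher, blue at least 2-fold lower, gray within 2-fold, with the list median as a black bar and the median of all members, -0.20, as a dotted line. List medians run from -3.27 for hepatic genes to 5.65 for the listed hosts of miR-9, miR-124 and let-7.

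Glial and neural crest genes did not share this direction. Of 10 glial members, 3 were higher and 4 lower. NFIA and NFIB, factors of the change from making neurons to making glia, were higher at 1.3996 against 29.3 TPM and 3.54 against 32.01 TPM, whereas the astrocyte marker GFAP was at 0.207 against 0.122 TPM and S100B at 28.7 against 0.9097 TPM. Of 14 members for neural crest and Schwann cells, none was higher and 6 were lower, with a median of -0.76. Without structural RNAs the same 14 had a median of -0.55, with 1 higher and 5 lower. With the limit recomputed too, which lets in other genes, the median was 0.058. ERBB3, the neuregulin receptor of Schwann cell precursors, was at 81.998 against 11.1 TPM, MITF, of pigment cells, at 13.8 against 1.52 TPM and SOX10, the crest marker, at 8.69 against 0.318 TPM, under the limit in both stages. TFAP2A, at 25.5 against 24.6 TPM, TFAP2B, at 36.98 against 37.4 TPM, and FOXD3, at 9.72 against 10.5 TPM, were close to equal.

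Mesenchymal genes were higher in PH as well. Of 60 listed, 34 were members, with 3 lower and a median of 1.80. Of the 34, 25 were at least 2-fold higher, against 9.67% of all members. COL3A1, a fibrillar collagen, was at 14.9 TPM in PP and 349 TPM in PH (ratio 4.46), COL1A1 at 4.46 against 42.9 TPM, COL1A2 at 114 against 435 TPM and COL6A3 at 1.63 against 71.2 TPM. Among defining markers, PDGFRA was at 11.9 against 58.1 TPM, PRRX1 at 16.4 against 52.9 TPM, TWIST1 at 9.402 against 25.9 TPM and DCN at 2.13 against 24.2 TPM. Summed over the list, the level was 2026 TPM in PP, 2265 TPM in PH and 5111 TPM in SC-β organoids. The sums were this close because FN1 (fibronectin), the most abundant gene of the list in PP, was at 1232 TPM in PP and 86.2 TPM in PH. The other lower genes were FBN2, at 109 against 37.1 TPM, and COL5A2, at 142 against 58.8 TPM. Unlike the neuronal genes, only 5 of the 25 were highest in PH, and 18 were highest in SC-β organoids, such as PDGFRA at 205 TPM and TWIST1 at 89.7 TPM. Mesenchymal markers were thus measured in PH beside neural ones. Their part in the results for genes that both kinds of cell express, such as VIM (vimentin) at 353 against 1437 TPM and ZEB1, was not tested.

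No endothelial or blood gene reached 10 TPM in PP or PH, and the summed level of the 31 found was 19.4 TPM in PP and 21.4 TPM in PH. PECAM1 was at 0.0317 against 0.0182 TPM and CDH5 at 0.369 against 0.132 TPM. For muscle, MYOD1 and MYOG were listed at 0 in PP and were at 0.0702 and 0.9702 TPM in PH, and 3 genes were members. ACTA2 (smooth muscle actin) was lower, at 15.2 against 3.57 TPM, as was TNNT1, a troponin of slow muscle, at 16.1 against 5.31 TPM, and TAGLN (transgelin) was within 2-fold at 14.6 against 13.2 TPM. The pluripotency list summed to 504 TPM in PP and 226 TPM in PH. Of its core factors, POU5F1 was at 0.543 against 0.425 TPM and NANOG at 0.0352 against 0.0284 TPM, while DNMT3B, a DNA methyltransferase, was higher in PH, at 20.8 against 59.5 TPM. Apart from LIN28A and LIN28B, the members lower on that list were ZFP42, at 11.7 against 0.838 TPM, SALL4, at 46.4 against 10.4 TPM, L1TD1, at 20.4 against 4.56 TPM, and DPPA4, at 77.2 against 22.01 TPM.

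**Figure D5:**
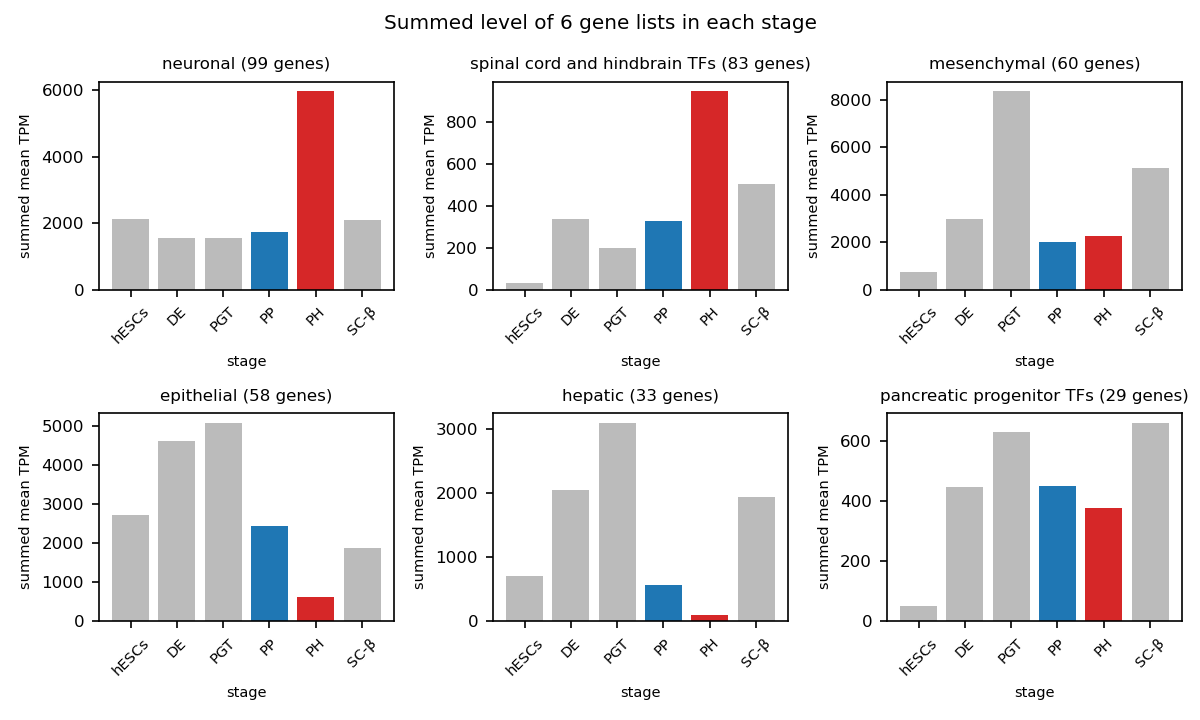
Summed mean TPM (y axis, from 0) of 6 gene lists in each of the 6 stages, with PP in blue, PH in red and the other stages in gray. The neuronal sum is highest in PH, at 5972 TPM, the mesenchymal sum is lower in PH (2265 TPM) than in SC-β organoids (5111 TPM), and the epithelial sum is lowest in PH, at 628 TPM.

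FGF signalling genes were lower in PH. Of 16 members, 11 were at least 2-fold lower, against 13.9% of all members, and 2 higher, with a median of -1.90. The ligand FGF8 was at 25.5 TPM in PP and 0.421 TPM in PH and FGF9 at 17.5 against 6.19 TPM. Genes that the pathway switches on as its own brakes were lower together, with DUSP6 at 54.9 against 5.45 TPM, SPRY2 at 72.2 against 10.3 TPM and SPRY4 at 26.7 against 3.32 TPM, and so were its ETS effectors ETV4, at 40.8 against 2.01 TPM, and ETV5, at 35.5 against 5.75 TPM. Receptors were unequal: FGFR1 was at 81.5 against 66.01 TPM and FGFR2 at 55.6 against 58.6 TPM, FGFR4 was lower at 18.6 against 4.87 TPM and FGFR3, a receptor of spinal progenitors, higher at 15.2 against 44.9 TPM.

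Of 13 members among Hedgehog genes, 7 were higher and 3 lower, with a median of 1.01, and 5 of the 7 were highest in SC-β organoids. SCUBE2, which helps release the ligands, had the largest ratio, at 1.24 TPM in PP and 41.5 TPM in PH (4.24), while its relative SCUBE3 had the lowest, at 30.9 against 8.18 TPM. The ligand SHH was at 10.1 against 2.42 TPM, HHAT, the enzyme that attaches its palmitate, at 11.1 against 4.57 TPM, and IHH was under the limit at 4.02 against 0.1396 TPM. Co-receptors were higher, with CDON at 40.99 against 133 TPM, BOC at 51.6 against 117 TPM and GAS1 at 12.9 against 40.97 TPM, as was the receptor and target PTCH1, at 9.04 against 20.3 TPM. The effector GLI2 was at 4.04 against 20.6 TPM, the effector GLI3 within 2-fold at 18.3 against 18.8 TPM and the target GLI1 at 0.747 against 7.003 TPM, no member.

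WNT genes went both ways, with 7 of 22 members higher, 5 lower and a median of -0.08. Over the same members it was 0.15 without structural RNAs. Among ligands, WNT7B was at 0.161 against 17.2 TPM, WNT4 at 4.58 against 16.5 TPM and WNT3 at 5.79 against 18.7 TPM, and WNT5A stood the other way, at 32.01 against 6.13 TPM. Among receptors, FZD5 was at 33.5 against 0.5197 TPM, FZD8 at 10.6 against 1.85 TPM and FZD6 at 21.3 against 5.12 TPM, while FZD3, which guides axons, was at 15.1 against 35.2 TPM. The target gene AXIN2 was within 2-fold at 25.9 against 44.4 TPM. For BMP and TGF-β signals, 10 of 13 members were within 2-fold, a share like that of all members (7863 of 10283). The BMP targets ID1, ID2 and ID3 were at 147 against 116 TPM, 102 against 109 TPM and 145 against 139.5 TPM.

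Genes of retinoic acid handling were unequal as well. CRABP2, a carrier that brings retinoic acid to its receptors, was at 563 TPM in PP and 72.3 TPM in PH, while CRABP1 was at 209 against 374 TPM. The uptake receptor STRA6 was at 101 against 40.3 TPM and the synthesis enzyme ALDH1A1 at 30.3 against 5.25 TPM. Receptors were at the limit or close to it, with RARB at 18.6 against 38.3 TPM and RARA at 25.7 against 47.97 TPM. Of 13 members 2 were higher, RARB and RXRB, and 4 lower.

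Cell cycle genes were lower in PH, to a degree that depended on the scaling. Of 32 members, 17 were at least 2-fold lower and 2 higher, with a median of -1.05 against -0.20 over all members. With PH rescaled by the median ratio 11 were lower, and with totals recomputed without structural RNAs 10. Replication genes were among them, with PCNA at 222 against 79.01 TPM, MCM6 at 52.7 against 17.5 TPM and RRM2 at 61.3 against 17.2 TPM, as was CCNE1 (cyclin E1), at 18.9 against 2.25 TPM. MKI67, a marker of cycling cells, was not lower, at 17.3 against 24.9 TPM. The inhibitors of cell division were opposed: CDKN1C was at 16.6 against 49.02 TPM and CDKN1B at 20.4 against 51.1 TPM, while CDKN1A was at 51.4 against 7.76 TPM. Of 60 histone cluster genes among the members, 40 were lower and 4 higher, with a median of -1.23, and 30 were lower without structural RNAs. Of 28 mitochondrially encoded genes, 23 were lower and none higher, with a median of -1.77.

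The largest differences in TPM were in structural RNAs. RN7SK, a noncoding RNA that restrains transcription elongation, made up 11.8% of the TPM total in PP and 19.7% in PH, and structural RNAs with their pseudogene entries made up 46.3% and 55.4%. Mitochondrially encoded genes took 1.54% and 0.607%, ribosomal protein genes 5.19% and 3.25% and histone cluster genes 3.75% and 1.57%. The total outside structural RNAs was lower in PH by a log2 ratio of -0.27, and the median ratio of PH to PP over genes at 10 TPM or more in both was 0.885. Of 25 reference genes of general expression, 24 were within 2-fold and B2M was lower, at 62.1 against 17.599 TPM, with a median of -0.26 for the list.

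With GENCODE release 44, 9915 of the 10283 members (96.4%) were matched. Protein-coding genes at least 4-fold higher had a median span of 40.9 kb, those 2- to 4-fold higher 58.2 kb, those within 2-fold 36.0 kb, those 2- to 4-fold lower 33.4 kb and those at least 4-fold lower 47.2 kb. A span over 100 kb was found for 33.0%, 38.4%, 20.3%, 21.0% and 28.4% of these. Long noncoding RNAs made up 6.70% of matched genes at least 4-fold higher (27 of 403), 3.82% of those at least 4-fold lower (12 of 314) and 1.17% of those within 2-fold. Lower noncoding RNAs included FIRRE, at 46.5 against 0.449 TPM, and PCAT14, at 144 against 0.244 TPM.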

How the data were processed

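Per the labels and the study's methods, Trizol was used to take total RNA from cultures derived from H9, and paired-end reads were aligned to hg38 with HISAT2 (version 2.2.0). The methods give ribosomal RNA removal with RiboMinus, whereas the labels name a TruSeq Stranded mRNA kit. The deposited values are TPM, which the authors computed for each gene with StringTie (version 2.1.6) and gave as 1 mean of 2 replicates at every stage, and the annotation behind the names is not given in the sources used here. Values of single replicates and the other assays of the series are not used here, and some genes are not reported here.

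The table's 50451 entries were summed by name (231 names had more than 1 entry). Ratios used a pseudocount of 1 TPM, and genes at 10 TPM or more in PP or PH were kept. Genes were named by a rule: members of 29 lists at least 2-fold apart or defining a lineage, the 25 largest ratios in each direction, the 10 largest differences in each direction, and HES5, LHX5 and SKOR1. The members and lists were chosen with earlier results of these data known. Older symbols were matched through RefSeq synonyms, spans came from GENCODE release 44 and sequences from RefSeq (GRCh38). Python 3.11.15, pandas 2.3.3, numpy 2.4.6 and matplotlib 3.10.9 were used, and the ratio script was tested on simulated data. Alternatives were other pseudocounts, limits, scalings and the treatment of repeated names.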

Additional observations from a re-analysis of the deposited data

How the results depend on the processing

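With 1 mean per stage, no error, interval or detection limit can be given, and leaving out a replicate was not possible. No paired analysis was possible because the table has no column for a single replicate. For genes under 1 TPM in 1 stage the ratio rests on the pseudocount. The cause of the values that moved was not tested, except that the set of genes counted can change. A changed limit does this, and so do rescaled totals that bring other genes to the limit. Across the alternatives, 21 counts and 217 list medians kept near their value, and those below did not. Over 409 named genes, 406 alternative ratios moved by more than 1.5-fold, 2426 did not and none reversed, and of 401 named genes past 2-fold, 21 came under it with a pseudocount of 5 TPM, 17 without structural RNAs, 16 with PH rescaled by the median ratio, 13 without the 100 most abundant genes and 1 without mitochondrially encoded genes.

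With a pseudocount of 0.1 TPM the median of spinal cord and hindbrain factors was 3.99. With 5 TPM it was 2.08, that of pancreatic factors -1.18, endocrine factors 1.86, hepatic genes -2.04, gut genes -1.46 and neuronal genes 2.01. For the listed hosts of miR-9, miR-124 and let-7, called miRNA hosts here, the median was 4.02. With 5 TPM, 214 genes were 4-fold higher and 112 lower. With totals recomputed without structural RNAs, 1943 genes were 2-fold and 782 were 4-fold higher. The medians were -0.25 for exocrine genes, 0.058 for neural crest genes and 4.86 for miRNA hosts. Over the members as reported they were -0.63, -0.55 and 6.01. Without the 100 most abundant genes, 2198 were 2-fold and 899 were 4-fold higher and 502 were 4-fold lower. Medians were 1.00 for endocrine factors, -1.24 for FGF genes, 4.99 for miRNA hosts and 0.058 for muscle genes, which reversed. Over the members as reported, this scaling gave 3.21 for endocrine factors, -1.80 for FGF genes, 6.02 for miRNA hosts and -1.33 for muscle genes. Muscle genes did not reverse over that set.

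With no limit on low values, 2522 genes were 2-fold and 659 were 4-fold higher, 2812 and 495 lower, and medians were 0.39 for endocrine factors, 0.039 for exocrine, -1.11 for hepatic, -0.22 for gut, 0.42 for spinal cord and hindbrain, -0.17 for neural crest, 1.05 for mesenchymal, -0.063 for muscle, -0.14 for pluripotency, -0.55 for FGF and 1.39 for HOX genes and 2.93 for miRNA hosts. At 30 TPM, 428 and 198 genes were higher and 687 and 129 lower. Medians there were 5.02 for endocrine factors, -2.53 for hepatic genes, 4.01 for spinal cord and hindbrain factors, -1.0004 for glial genes and 1.67 for anterior factors, and 2 reversed, pancreatic factors to 0.23 and gut genes to 0.57.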

Other observations

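The 4 groups of genes given here were picked after the values had been seen, so their counts only describe the table. These counts were not recomputed with the other scalings. Some of the genes counted as lower lay close to the 2-fold limit, such as TP53INP1 (ratio -1.07) and IGF2BP1 (-1.06). Among 32 genes known to be switched on by p53, 30 were members, of which 10 were within 2-fold and none was higher. The other 20 were at least 2-fold lower in PH, against 13.9% of all members. The median ratio was -1.26 against -0.20 over all members. CDKN1A, the p53-induced inhibitor of cell division, was at 51.4 TPM in PP and 7.76 TPM in PH and 23.4 TPM in SC-β organoids. BAX, which opens mitochondria in cell death, was at 75.8 against 13.3 TPM in PP and PH and at 48.1 to 92.2 TPM in the other 4 stages. The death receptor FAS was at 13.2 against 1.44 TPM, RRM2B, which supplies nucleotides for repair, at 22.2 against 5.49 TPM and FDXR at 15.7 against 3.705 TPM. MDM2, which degrades p53 and is also its target, was within 2-fold at 54.5 against 52.4 TPM.

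Of known let-7 targets, 11 of 16 members were lower in PH, against 13.9% of all members, and none higher, with a median of -1.46. Beyond those in the report they included PRTG, a cell surface protein of early embryos, at 174 against 6.26 TPM, NR6A1, a nuclear receptor of early development, at 32.6 against 4.87 TPM, and CDC25A, a cell cycle phosphatase, at 27.5 against 4.81 TPM. CCND2, also a known target, was at 115 against 94.3 TPM and DICER1 at 57.1 against 47.3 TPM.

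Among heat shock and immediate early genes, 10 of 16 members were at least 2-fold higher, against 9.67% of all members. None was lower, and the median was 1.40. HSPA6, a strictly stress-induced chaperone, was at 0.02197 TPM in PP and 36.3 TPM in PH and at 0.470 TPM or less elsewhere. HSPA1A and HSPA1B were at 24.3 against 173 TPM and 29.6 against 221 TPM, and at 29.0 TPM or less in the other stages. FOS was at 6.54 against 60.3 TPM, with 85.5 TPM in hESCs and 54.9 TPM in SC-β organoids. The constitutive chaperones HSPA8, at 1007 against 753 TPM, and HSPD1, at 289 against 204 TPM, were within 2-fold. Among genes induced by low oxygen, 9 of 24 members were higher, against 9.67% of all members, and none lower. Higher ones included BNIP3, of mitochondrial turnover, at 14.02 against 85.2 TPM, and PFKFB3, which speeds up glycolysis, at 10.98 against 61.4 TPM. CA9, a gene induced strongly by low oxygen, was at 0.466 against 0.123 TPM, and VEGFA was within 2-fold at 48.2 against 81.5 TPM.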
